A study of Rattus norvegicus with 38 samples.

Results

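In healthy rat hearts, 98 of 24057 genes stood at least 3 times as high in both parts of the sinoatrial node as in either atrium or the left ventricle, by a ratio of mean levels. The genes were chosen from the healthy libraries alone. For each gene, the lower of the mean levels in the inferior node (iSAN) and the superior node (sSAN) was divided by the highest of the mean levels in 3 other regions, with 1 TPM added to both. These regions are the right atrium (RA), left atrium (LA) and left ventricle (LV). TPM, the usual transcript abundance unit, is scaled for transcript length and library size. Genes with a ratio of at least 3 are the members, and each is named here by its rank, from 1 for the highest ratio to 98 for the lowest. Because the healthy libraries chose the members, the height of the members in the healthy node is a description and carries no test. The failing libraries were not used in the choice.

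All libraries came from male Sprague-Dawley rats aged 10 weeks. In the failing group the ascending aorta had been constricted when the rats were 1 week old, an operation that loads the left ventricle and makes it hypertrophic. The labels carry the same protocol text for healthy animals and do not tell how those were handled. Of the 38 libraries, the failing group has 4 in each of the 5 regions, and the healthy group has 4 in each region except the left ventricle, which has 2. Library titles combine a region and a 4-digit code. In healthy hearts SB stands before the code of an inferior and ST before that of a superior node library, as in SB_0920, while failing hearts have iSAN and sSAN, as in iSAN0409. The meaning of this difference is not stated. Nothing in the labels ties a code to an animal, so that p-values may measure only the spread between these libraries. No code occurs in both health states, so that a batch tied to the codes and the health state cannot be told apart. Values within a group are given in the order of the codes.

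The sinoatrial node is a small region at the junction of the superior vena cava and the right atrium, where the heartbeat starts. Its pacemaker cells depolarise spontaneously through hyperpolarisation-activated and calcium currents, and the node keeps a transcription factor programme that differs from that of working atrial muscle. The node also holds abundant connective tissue and is densely innervated, so that a dissected piece contains fibroblasts, nerve fibres with their glia and often fat beside the pacemaker cells. In bulk tissue, fewer cells of a type and less RNA per cell cannot be told apart. The deposited tables give Ensembl gene identifiers without names, and 0 of these matched the reference table used here. Whether known node genes such as Hcn4, Isl1, Shox2 or Tbx3 are among the members was therefore not analysed, and neither were the markers of ganglia, glia, fat or cartilage. Their part in the results was not tested.

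Library totals ranged from 17406473 to 27355777 estimated counts. The healthy inferior node library SB_0920 stood apart from the rest of its group. Of the 98 members, 90 had their lowest healthy inferior node level in it, and 68 had their highest in SB_0921. Over 12431 genes that are not members and with levels on the log2(TPM + 1) scale, SB_0920 correlated with the mean of the healthy right atrium at r = 0.983 and with the mean of the other healthy node libraries at r = 0.982. The other 7 healthy node libraries had lower correlations with the right atrium (0.930 to 0.975) than with the node (0.970 to 0.991). These correlations are across genes within a library and have no p. Leaving out SB_0920 alone gave 112 members, among them all 98.

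**Figure D1:**
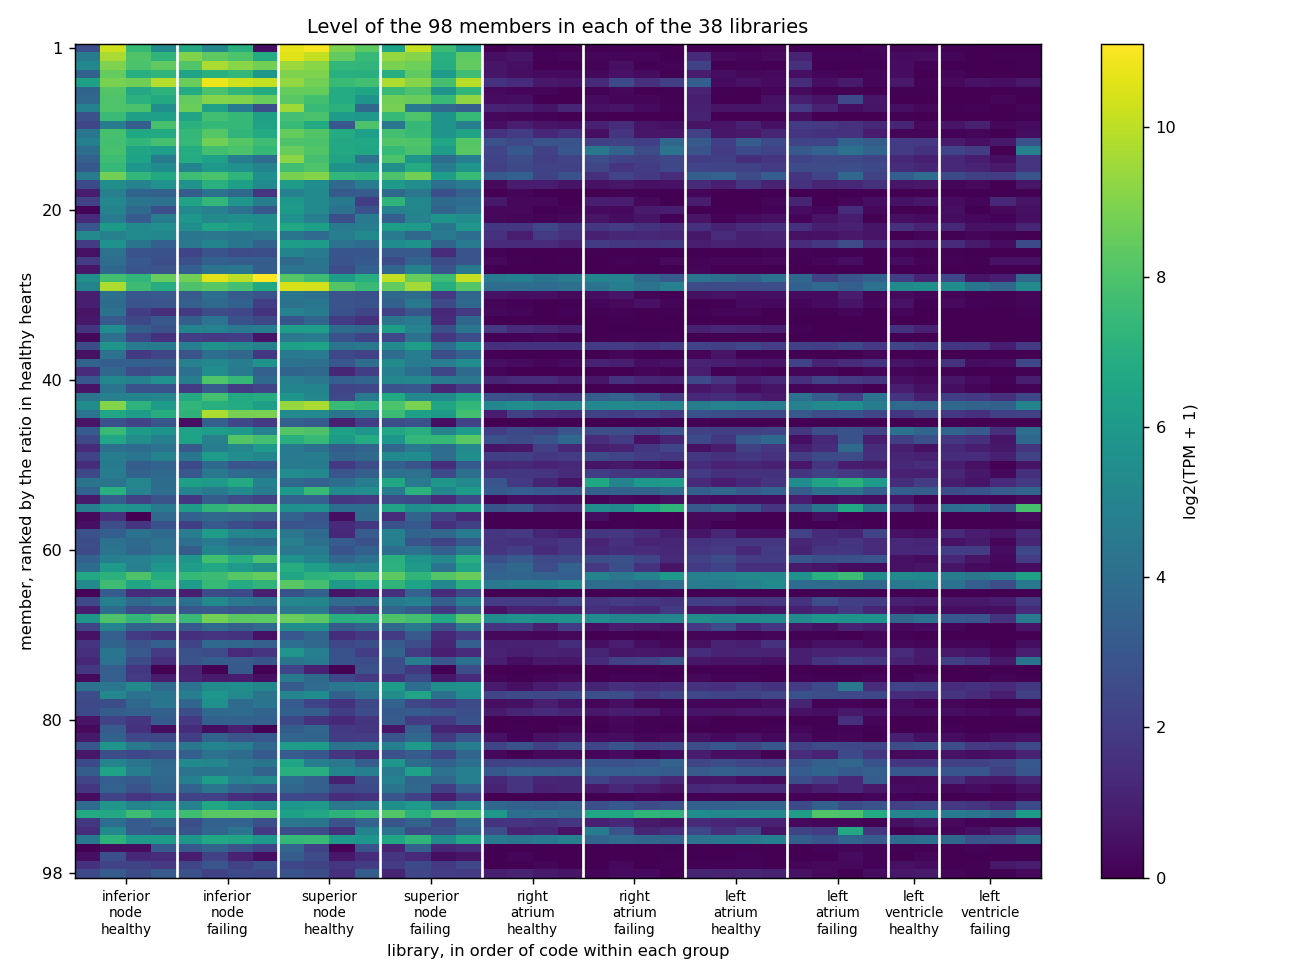
Level of each of the 98 members (rows, ranked by the healthy ratio) in each of the 38 libraries (columns, in order of code within each group), as log2(TPM + 1). The 16 node libraries on the left are bright, the first of them, SB_0920, is darker than its group, and a few rows such as that of rank 52 are also bright in the failing atria.

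The members ranged widely in level and in ratio. These values describe the choice. The healthy ratios ran from 3.01 to 339 with a median of 4.76, and the middle part of the list lay between 3.71 and 7.83 (25th and 75th percentiles). The members just inside the threshold had ratios of 3.04, 3.01 and 3.01, and the genes just outside had 2.92, 2.88 and 2.85. The lower node mean reached 10 TPM in 60 members and 100 TPM in 19. In 44 members the highest mean outside the node was under 1 TPM. The highest ratios, of ranks 1 to 10, were 339, 207, 147, 118, 106, 102, 97.6, 72.2, 67.7 and 40.9, and the same members had failing ratios of 65.1, 228, 224, 90.1, 170, 147, 151, 58, 127 and 21.0. All 10 stayed far above the threshold. The region with the highest mean outside the node was the right atrium for 39 members, the left atrium for 38 and the left ventricle for 21.

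ENSRNOG00000003580, rank 1, had the highest ratio. Its levels in healthy libraries were 5.39, 1275, 173 and 38.5 TPM in the inferior node and 1705, 2031, 480 and 312 TPM in the superior node. No library of the atria or the ventricle, healthy or failing, exceeded 0.185 TPM. The gene was near 0 outside the node, while its node levels spread widely within a group. In failing libraries it stood at 102, 34.2, 127 and 0.318 TPM in the inferior node and at 82.5, 1119, 193 and 63.1 TPM in the superior node. The log2 change from healthy to failing was -2.67 (SE 1.68, edgeR adjusted p = 0.24) in the inferior and -1.79 (SE 1.02, edgeR adjusted p = 0.25) in the superior node, and neither passed the threshold of 0.05. Without sSAN0506 the superior node change was -3.59 (edgeR adjusted p = 0.032).

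The summed TPM of the 98 members is carried by its most abundant members. In the healthy inferior node the sums were 1109.8, 10394, 4796 and 5227 TPM, and in the failing inferior node 6392, 12597, 9502 and 8743 TPM. The superior node had 15049, 13229, 4230.4 and 4026 TPM in the healthy and 9709, 9673, 3568 and 8563 TPM in the failing libraries. Healthy and failing sums overlapped in both node parts. In the right atrium the mean sum was 367 TPM ± 31.7 (SD, n = 4) in healthy and 595 TPM ± 79.2 (SD, n = 4) in failing hearts. The left atrium had 345 to 383 TPM in healthy and 445 to 1137 TPM in failing libraries, and the left ventricle 289 TPM in both healthy and 130.1 to 711 TPM in failing ones. Every node library was above every atrial and ventricular library of its own health state. In both atria the failing sums did not overlap the healthy ones, but ranks 52, 55, 63 and 91, picked after their values were seen, carried most of this. Their summed mean was 43.9 TPM in the healthy and 305 TPM in the failing right atrium, and 77.3 and 395 TPM in the left. The other 94 members summed to 292 to 347 TPM in healthy and 241 to 327 TPM in failing right atrial libraries, and to 265 to 305 TPM and 276 to 469 TPM in left atrial ones, with overlap in both. The median member level overlapped as well, at 0.932 to 1.02 TPM in healthy and 0.491 to 1.02 TPM in failing right atrium, and at 0.645 to 1.18 TPM and 0.717 to 1.28 TPM in the left.

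**Figure D2:**
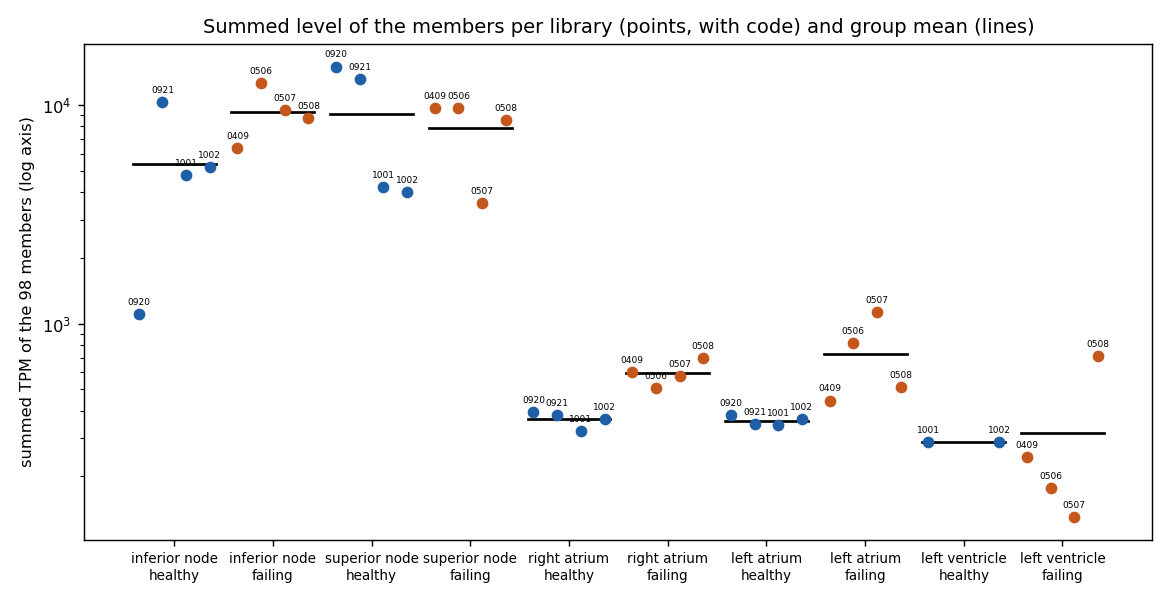
Summed TPM of the 98 members on a log axis for each library (points with their codes, blue for healthy and orange for failing) and the group mean (lines). SB_0920 lies at 1109.8 TPM, while the other node libraries lie between 3568 and 15049 TPM and the atria and ventricle between 130.1 and 1137 TPM.

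For most members the height in the node was kept in failing hearts, which the choice of members had not used. In failing hearts 82 of the 98 members had a ratio of at least 3 (83.7%), against 0.574% of all genes (138 of 24057). The members made up 59.4% of those 138 genes. The median failing ratio was 5.81 (25th percentile 3.78, 75th 13.5), and the ratio was higher than in healthy hearts in 58 members. The ratio was still at least 3 in 37 of the 44 members that had been under 1 TPM outside the healthy node, and in 45 of the other 54. In 82 members every failing node library was above every failing library of the atria and the ventricle, against 1.93% of all genes. In healthy hearts the same held for 73 members, against 1.16% of all genes, and for 92 members without SB_0920. It held for 64 members in both states, where no more than 1.16% of all genes can have done so. The counts that involve healthy libraries follow in large part from the choice of members. They describe it and do not support it.

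**Figure D3:**
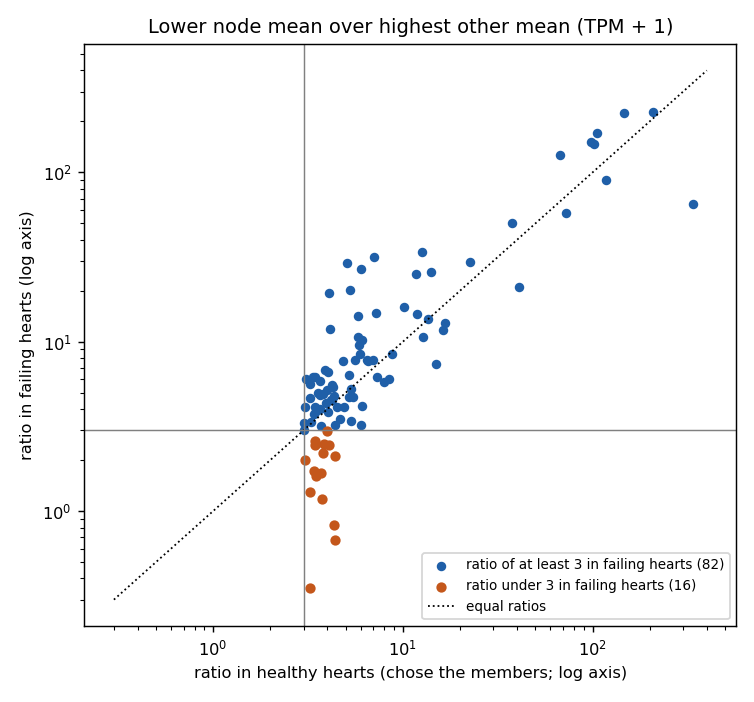
Ratio of the lower node mean to the highest other mean (TPM + 1) in healthy hearts (x axis, which chose the members) and failing hearts (y axis), both log axes, with 1 point per member. The 82 blue points lie at or above 3 in failing hearts and the 16 orange points below it, 3 of them under 1.

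Most members passed the test of failing node against failing atria and ventricle in every comparison. Against the failing right atrium, 89 of 94 tested members were higher in the inferior node, where 11.6% of all tested genes were higher, and 88 of 95 in the superior node, where 6.11% were. Against the failing left atrium the counts were 83 of 94 (8.45% of all genes) and 82 of 95 (4.25%). Against the failing left ventricle they were 86 of 94 (12.2%) and 87 of 95 (7.69%). In none of these 6 comparisons was a member called lower, where in the same order 7.37%, 2.17%, 3.41%, 1.55%, 13.2% and 7.24% of all genes were. The other members were under the filter on low counts, and a member near 0 outside the node could pass that filter only through its node level, so that the counts over tested members describe the list and do not support it. Median log2 differences of the tested members lay between 4.33 and 4.78, beside medians of -0.01 to 0.05 over all genes. Of the 93 members tested in all 6 comparisons, 75 were called higher in each. The share of all genes called higher in all 6 was not computed. At most 608 genes can have been, the number called higher in failing superior node against failing left atrium. Of all 98 members, whether tested or not, 4 were called in 0 of the 6.

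The size of the difference varied widely between members. The member ranked 9 had 87.9, 216, 166 and 78.9 TPM in the failing inferior node and 171, 262, 53.5 and 175 TPM in the failing superior node, but 0 to 0.0476 TPM in the failing right atrium. Its log2 difference from the failing right atrium was 12.15 (SE 0.54, edgeR adjusted p = 7.6e-06) in the inferior and 12.78 (SE 0.79, edgeR adjusted p = 1.1e-04) in the superior node. The member ranked 7 stood at 347, 529, 510 and 368 TPM in the failing inferior node against 0.0449 to 0.245 TPM in the failing right atrium (log2 difference 11.41, SE 0.30, edgeR adjusted p = 2.7e-07). For both genes the node and atrial libraries lay far apart, with no overlap. Both were near 0 in the right atrium and could pass the filter on low counts only through their node level. Their p-values therefore describe these genes and do not support the list, and the size of the difference is imprecise.

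**Figure D4:**
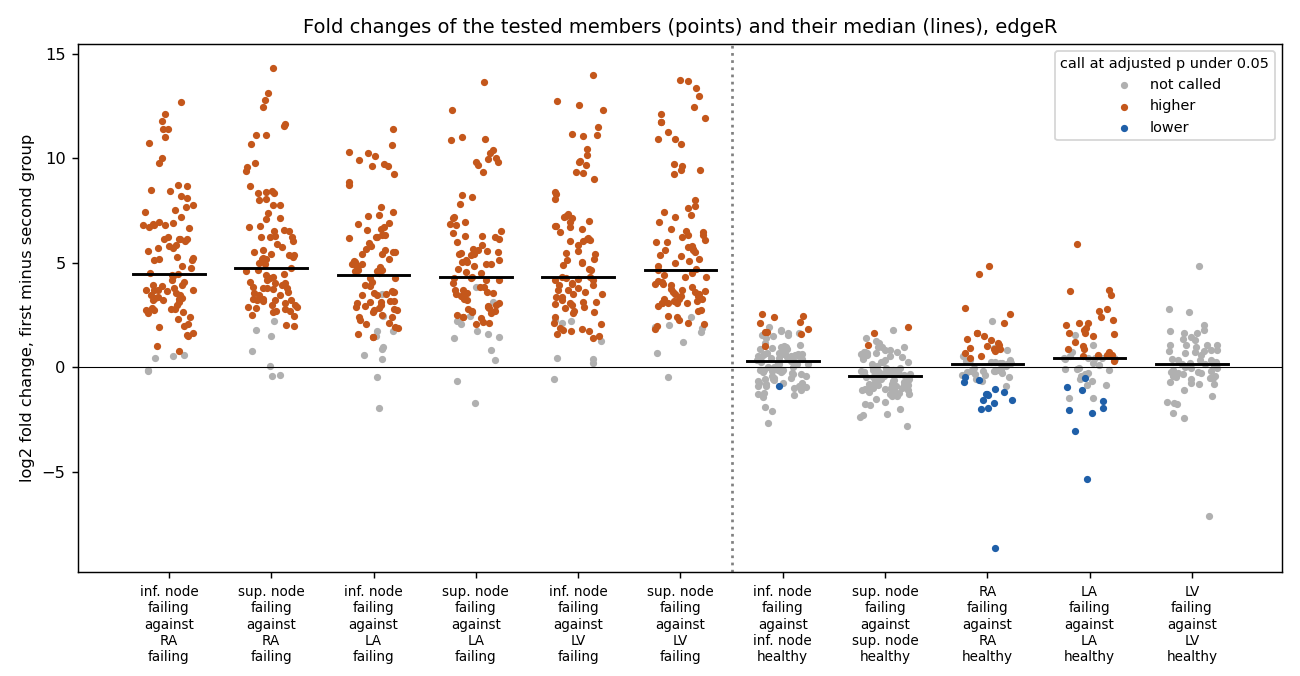
Log2 fold change of each tested member (points, coloured by call at an edgeR adjusted p under 0.05) and the median of the tested members (lines) in 11 comparisons. To the left of the dotted line, failing node against failing right atrium, left atrium (LA) and left ventricle (LV), medians are 4.33 to 4.78. To the right, failing against healthy within each region, they are -0.41 to 0.44.

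In 16 members the ratio fell under 3 in failing hearts. Their healthy ratios were 3.04 to 4.41 (ranks 52 to 96), all under the median of 4.76 of the list. What part this closeness to the threshold had in the losses was not tested. The highest mean outside the node moved more than the node mean in 9 of the 16 members, and the node mean moved more in 7. ENSRNOG00000027736, rank 52, is named here after its values were seen, because its failing ratio was 0.676. In the right atrium it stood at 6.64, 2.6, 1.22 and 0.482 TPM in the healthy libraries and at 101, 30.8, 59.7 and 63.3 TPM in the failing ones. In the left atrium the levels were 1.56, 0.825, 1.4 and 2.32 TPM in the healthy and 40.1, 88.3, 129.8 and 64.4 TPM in the failing libraries. Both pairs of groups were separate by a wide margin, and the log2 changes were 4.83 (SE 0.63, edgeR adjusted p = 5.2e-04) and 5.92 (SE 0.43, edgeR adjusted p = 5.4e-05). The left ventricle stayed low, at 1.77 and 2.79 TPM in healthy and 0.542 to 2.73 TPM in failing libraries. In the inferior node the same gene had 18.6, 18.5, 32.5 and 14.1 TPM in healthy and 78.6, 63.1, 108 and 28.9 TPM in failing libraries, with a log2 change of 1.69 (SE 0.43 and edgeR adjusted p = 0.015). In the superior node it had 12.6, 10.1, 15.1 and 24 TPM and then 99.7, 22.2, 58.5 and 36.5 TPM, a change of 1.63 (SE 0.37 and edgeR adjusted p = 0.026) whose call was lost under 7 other settings, among them the loss of sSAN0507, ST_0920, ST_0921 or ST_1001. The node groups overlapped in both parts through 1 library each. Failing node and failing right atrium overlapped, with log2 differences of -0.20 (SE 0.47, edgeR adjusted p = 0.81) for the inferior and -0.35 (SE 0.44, edgeR adjusted p = 0.70) for the superior node.

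The member ranked 55 had a failing ratio of 0.83. Its right atrial levels were 2.25 to 7.6 TPM in healthy and 36.9 to 151 TPM in failing libraries, with a log2 change of 4.44 (SE 0.61 and edgeR adjusted p = 6.1e-04). Its inferior node levels were 25.7, 54.8, 48.6 and 23.4 TPM in healthy and 67.6, 151.5, 202 and 195 TPM in failing libraries, with a log2 change of 1.83 (SE 0.39 and edgeR adjusted p = 0.0071). Failing inferior node and failing right atrium overlapped (log2 difference 0.45, SE 0.50, edgeR adjusted p = 0.57). In the failing left ventricle the gene stood at 14.5, 15.8, 6.48 and 233 TPM, with LV_0508 far above the rest.

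The member ranked 93 had the lowest failing ratio, 0.350, with a single left atrial library far above the rest of its group. Its failing left atrial levels were 3.82, 2.91, 103 and 2.3 TPM, against 0.541 to 4.25 TPM in the healthy left atrium. The log2 change of 3.66 (SE 1.33, edgeR adjusted p = 0.045) was 0.40 (edgeR adjusted p = 0.59) without LA_0507, and the call was also lost without any 1 of the healthy left atrial libraries (edgeR adjusted p = 0.080 to 0.106). The failing right atrial mean of rank 93 was 8.40 TPM (SD 10.9, n = 4), against 2.05 TPM in healthy libraries (edgeR adjusted p = 0.077). Its failing node means were 9.55 TPM in the inferior and 9.16 TPM in the superior part. The fall of its ratio under 3 therefore did not rest on LA_0507 alone. Of the losses in which the node mean moved more, rank 86 is an example. It had 8.7, 86.8, 25.1 and 13.6 TPM in the healthy and 18.3, 18.3, 19.3 and 10.5 TPM in the failing inferior node, and between 7.43 and 11 TPM in all atrial libraries. Ranks 52, 55, 73, 86 and 93 were the members that were tested but not called by edgeR between failing inferior node and failing right atrium. Rank 86 was called higher there with limma on log2(TPM + 1) (0.79, adjusted p = 0.036) and on log2(TPM + 0.1) (0.85, adjusted p = 0.028). It was also called without iSAN0508 (0.75, edgeR adjusted p = 0.023).

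Between failing and healthy node, 11 members changed in the inferior and 3 in the superior part. Comparisons of failing with healthy hearts use the healthy libraries that chose the members, so these shares are a description, and nothing is read from them against all genes. In the inferior node 10 of 97 tested members were higher and 1 was lower in failing hearts (11.3%), against 38.5% of all tested genes, 19.5% higher and 19% lower. The median log2 change of the members was 0.29, beside 0.01 over all genes. The count was 19 without SB_0921, where the median was 0.86, and the median was -0.06 without SB_0920. In the superior node 3 of 97 were higher and 0 lower (3.1%), against 13.5% of all genes, 8.92% higher and 4.56% lower, with a median of -0.41 beside -0.01. At an unadjusted p under 0.05, 16 of 97 members (16.5%) and 32.6% of all genes passed there by edgeR. DESeq2 called 10 members (of 97) and 21.6% of all genes. The superior node count ranged from 0 to 8 when single libraries were left out. It was 8 without sSAN0506, 0 without ST_0920, and 1 without sSAN0507, ST_1001 or ST_1002.

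ENSRNOG00000033564, rank 28, had the largest rise in the inferior node. Its levels were 43.5, 213, 156 and 364 TPM in healthy and 422, 1578, 1026 and 2211 TPM in failing libraries, with no overlap. The log2 change was 2.55 (SE 0.63, edgeR adjusted p = 0.013). In the superior node the levels were 287, 204, 69.9 and 121 TPM in healthy and 1092, 366, 197 and 1109 TPM in failing libraries, which overlapped, and its log2 change was 1.79 (SE 0.58 by edgeR, adjusted p = 0.068). This change was called by DESeq2 (1.78, adjusted p = 0.0057) and in 1 edgeR fit of all 38 libraries (1.80, adjusted p = 0.033). In the right atrium it stayed between 18.9 and 27.2 TPM in healthy and between 7.84 and 32.8 TPM in failing libraries.

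ENSRNOG00000058006, rank 44, followed with 17.6, 91.7, 67.1 and 122 TPM in the healthy and 147, 849, 455 and 467 TPM in the failing inferior node. The failing libraries were all above the healthy ones, and the log2 change was 2.45 (SE 0.58, edgeR adjusted p = 0.011). In the superior node it rose from 38.7, 37.3, 18.5 and 27.3 TPM to 188, 78.5, 65.6 and 212 TPM, again without overlap (log2 change 1.94, SE 0.40, edgeR adjusted p = 0.021). That call was lost without ST_0920 (edgeR adjusted p = 0.057) or ST_1002 (edgeR adjusted p = 0.054).

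ENSRNOG00000012478, rank 23, was the only member called lower in the failing inferior node. It had 36.2, 27.7, 39.2 and 34.8 TPM in healthy and 19.4, 20.4, 18.4 and 20.3 TPM in failing libraries, a tight pair of groups with no overlap. The log2 change was -0.90 (SE 0.12, edgeR adjusted p = 0.0012). In the superior node, where healthy libraries had 13.7 to 38.6 TPM and failing ones 12.2 to 22.1 TPM, the change was -0.58 (SE 0.25, edgeR adjusted p = 0.15). Unlike most members, this gene was not low in SB_0920.

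The other rises in the inferior node were those of ranks 61, 42, 87, 55, 38, 52, 58 and 91, with log2 changes from 2.41 to 1.01. Rank 42 had 18.1 to 32 TPM in healthy and 107 to 220 TPM in failing libraries (log2 change 2.19, SE 0.23, edgeR adjusted p = 7.1e-04). Rank 38 had 9.14 to 10.4 TPM in healthy and 25.3 to 49.8 TPM in failing libraries (log2 change 1.70, SE 0.18, edgeR adjusted p = 7.3e-04). Rank 38 also rose in the superior node, with 7.02 to 16.9 TPM in healthy and 23.4 to 42.4 TPM in failing libraries (log2 change 1.05, SE 0.29, edgeR adjusted p = 0.042), a call that 10 other settings lost. The members that rose in both node parts by edgeR's test of each comparison were ranks 38, 44 and 52. The member ranked 7 did not pass the test in the inferior node although its healthy libraries, at 12.6, 263, 135 and 106 TPM, lay below all failing ones (log2 change 1.57, SE 0.69, edgeR adjusted p = 0.10). It passed without SB_0920 (1.18, edgeR adjusted p = 0.045) or SB_0921 (2.35, edgeR adjusted p = 0.026).

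**Figure D5:**
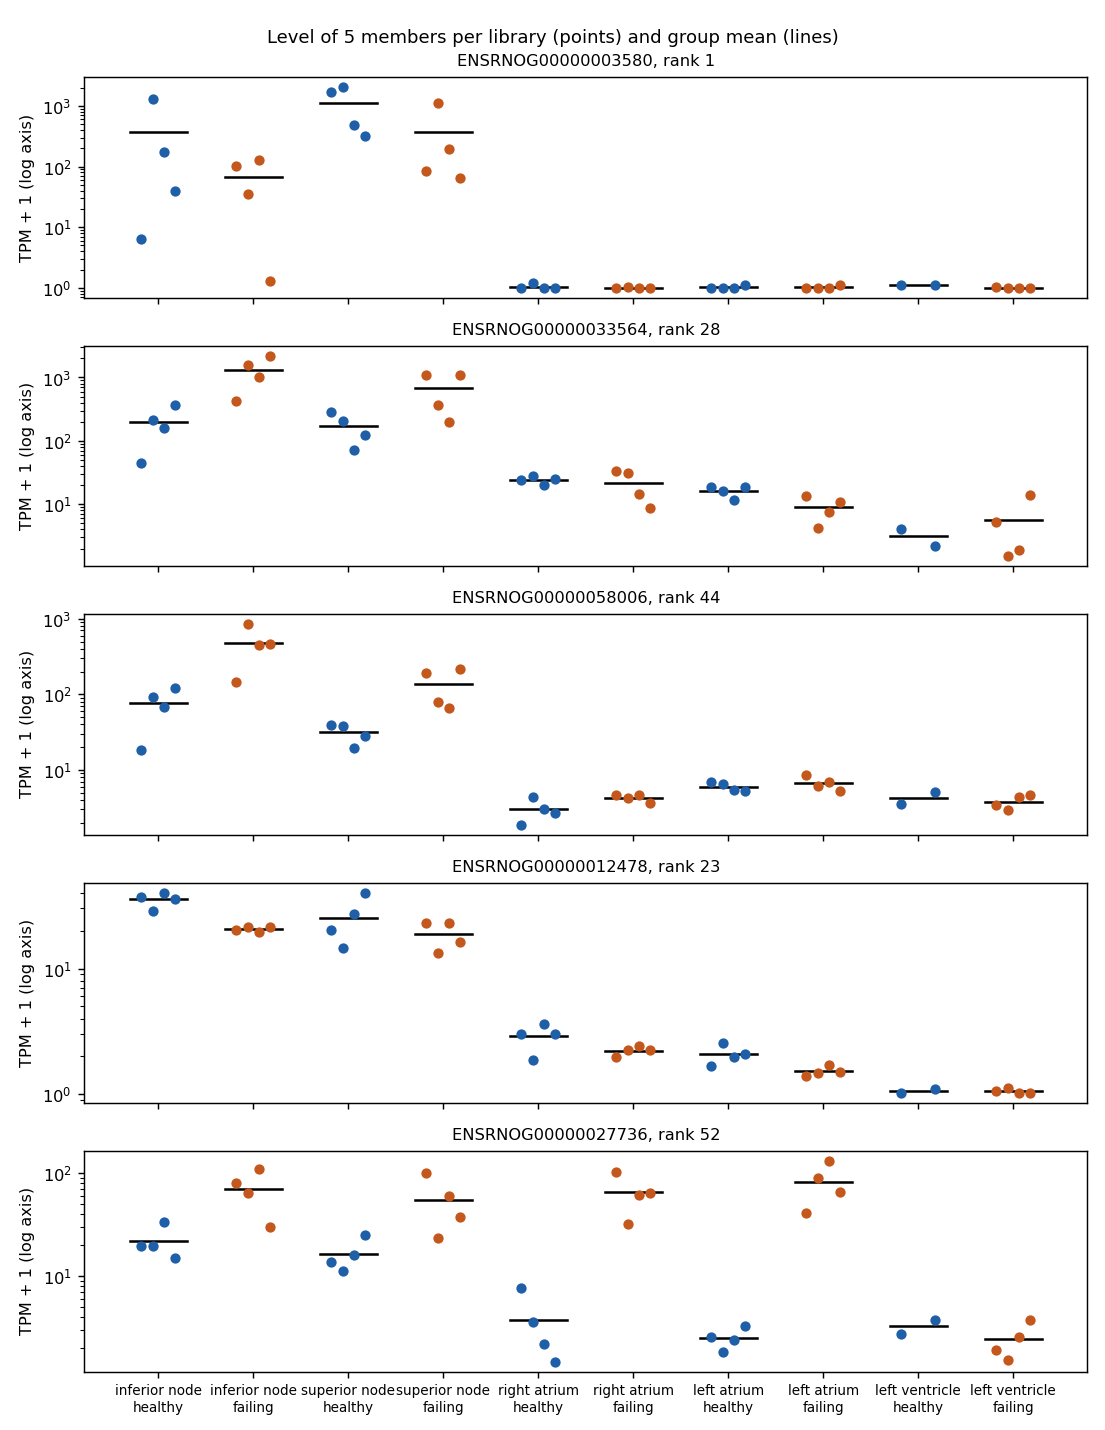
TPM + 1 on a log axis for 5 members in each library (points, blue for healthy and orange for failing) with the group mean (lines), from top to bottom ranks 1, 28, 44, 23 and 52. Rank 52 is the only panel in which the failing atria, at 30.8 to 129.8 TPM, lie at the level of the failing node.

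In the atria the tested members changed in both directions. In the right atrium 20 of 64 tested members were higher and 14 lower in failing hearts (53.1%), against 47.5% of all genes, 24.5% higher and 23% lower. In the left atrium 27 of 63 were higher and 9 lower (57.1%), against 48.2% of all genes, 24.3% higher and 23.9% lower. The balance of directions depended on the tool and on scaling. With limma on log2(TPM + 1) and TPM rescaled by TMM it was 16 higher and 15 lower in the right and 23 higher and 9 lower in the left atrium. On TPM as deposited limma gave 12 higher and 17 lower in the right and 17 higher and 13 lower in the left. Shares of all genes in these limma fits are not given here. Of the 61 members tested in both atria, edgeR called 16 (26.2%) as rises in the right and the left, 8 (13.1%) as falls in each, and 0 in opposite directions. Over all 13849 genes tested in both, these shares were 18.2%, 17.8% and 0.152%. The atrial comparisons share no library, but they share the codes, and the healthy libraries of both entered the choice of members. A low healthy mean outside the node favoured that choice. The atrial shares are therefore a description, and nothing is read from them against all genes.

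The member ranked 91 rose in the right atrium from 13.6 to 59 TPM in healthy to 98.9 to 153 TPM in failing libraries (log2 change 2.55, SE 0.49, edgeR adjusted p = 0.0026). Left atrial levels were 35.7 to 41.3 TPM in healthy and 74.1 to 271 TPM in failing libraries (log2 change 2.39, SE 0.34, edgeR adjusted p = 6.7e-04). In the inferior node it rose from 102 to 204 TPM in healthy to 199 to 314 TPM in failing libraries (log2 change 1.01, SE 0.20, edgeR adjusted p = 0.0053). Whether the atrial and node changes differ was not tested. Rank 63 rose in the right atrium from 9.09 to 11.2 TPM to 20.5 to 62.2 TPM (log2 change 2.12, SE 0.35, edgeR adjusted p = 0.0013).

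Among the members that fell, the one ranked 34 was at or near 0 outside the failing node. It is described after its values were seen. In the right atrium it had 2.55, 1.48, 1.32 and 0.917 TPM in healthy libraries and 0 in all 4 failing ones. Against a floor of 3 counts over the failing group this is at least 67.5-fold lower (edgeR adjusted p = 5.3e-04). The left atrium had 0.968, 1.29, 1.07 and 0.828 TPM in healthy libraries, and in the failing ones 0.0796 TPM in LA_0409 and 0 in the others (log2 change -5.37, SE 0.71, edgeR adjusted p = 4.6e-04). The left ventricle had 2.11 and 1.04 TPM in healthy libraries and 0.0256 TPM in 1 failing library and 0 in the others (log2 change -7.11, SE 0.86, edgeR adjusted p = 0.16). That fall was called by DESeq2 (adjusted p = 6.61e-06), by limma on log2(TPM + 0.1) (adjusted p = 0.049) and in 1 edgeR fit of all 38 libraries (adjusted p = 0.010). In the failing node the gene stood at 31.1, 28.4, 21.1 and 25.4 TPM in the inferior and 71.8, 29.5, 5.56 and 19.5 TPM in the superior part, at least 1222-fold above the right atrium for the inferior part, by the same floor. Healthy node levels were 2.19, 41.1, 8.64 and 5.8 TPM in the inferior and 74.7, 72, 14.1 and 12.1 TPM in the superior part, overlapping the failing ones. Rank 98 also fell in both atria, from 0.493 to 1.08 TPM to 0 to 0.265 TPM in the right (log2 change -2.0, SE 0.57, edgeR adjusted p = 0.017) and from 1.03 to 1.27 TPM to 0.0264 to 0.454 TPM in the left atrium (log2 change -2.03, SE 0.54, edgeR adjusted p = 0.013).

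In the left ventricle edgeR called 0 of 61 tested members between 4 failing and 2 healthy libraries, and 0% of all genes. At an unadjusted p under 0.05, 17 members (27.9%) and 11% of all genes passed, and DESeq2 called 3 members and 2.52% of all genes. The healthy left ventricle also entered the choice of members, so these shares are a description as well.

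Between the node parts no member passed the test of edgeR in either health state. The healthy values are a description, since the means of these libraries chose the members, and SB_0920, the lowest library for 90 members, is on the inferior side. In healthy hearts 89 of 97 tested members had a negative log2 difference of inferior minus superior node, with a median of -0.97 beside 0.00 over all genes. Without single libraries the median lay between -1.54 and -0.56. With edgeR 0 members were called, against 0.00698% of all genes (a single gene). At an unadjusted p under 0.05, 2 members (2.06%) and 10.2% of all genes passed, and DESeq2 called 0 members and 0.712% of all genes. In 0 members did the libraries of the healthy node parts separate. The share of all genes that separated there is not given here, so that nothing is read from this count. In failing hearts the median was -0.26, with 62 of 97 negative. With TPM not rescaled this median was 0.12, where the median of all genes was also shifted, to 0.19. edgeR called 0 members and 0% of all genes, and at an unadjusted p under 0.05 there passed 12 members (12.4%) and 7.86% of all genes. DESeq2 called 1 member and 0.267% of all genes. That member, ranked 78, had 11.3, 47.3, 13.7 and 18.3 TPM in the inferior and 10.3, 4.14, 2.91 and 4.78 TPM in the superior node, with no overlap (log2 difference 1.66, SE 0.42, edgeR adjusted p = 0.63). Ranks 42 and 78 were the only members without overlap between the failing node parts, where 4.53% of all genes had every inferior library above every superior one.

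Within the node groups the members varied together from library to library. After each group's mean was removed, the median correlation between pairs of members over the 16 node libraries was 0.673 on the log2(TPM + 1) scale, beside 0.431 over all 12769 genes with a mean of at least 1 TPM in the node. This is a description, since members share libraries and the healthy libraries chose them. The highest library of a group exceeded the lowest by a median factor (TPM + 1) of 7.67 in the healthy and 2.58 in the failing inferior node, and of 4.08 and 3.96 in the superior node. A single library was often extreme for most members. sSAN0507 was the lowest of its group for 73 members, and iSAN0506 the highest for 62. The amount of node tissue in each piece was not measured, and its part in these differences was not tested.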

How the data were processed

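Reads of 38 libraries from 5 heart regions were trimmed by Trimmomatic 0.39, and kallisto 0.48.0 quantified them (per the submitters' processing notes). Build and annotation were not found in the sources used here. The authors deposited estimated counts and TPM for 24057 genes. Across 13474 genes, log(count/TPM) equalled a gene effect plus a library effect to within 5.8e-13, so the deposited counts carry a length scaling. Transcript tables were not used.

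Members came from mean TPM of healthy libraries. Members and lists were chosen with earlier results of these data known. Estimated counts were rounded, filtered by filterByExpr (minimum count 10, minimum total 15), scaled by TMM and tested for each pair of groups over all genes with edgeR 4.0.16 (robust quasi-likelihood, R 4.3.3), using Benjamini-Hochberg adjustment and a threshold of 0.05. Alternatives were DESeq2 1.42.0, limma 3.58.1 on log2(TPM + 1) and log2(TPM + 0.1), other size factors, no filter, a joint fit, the code as block, and single libraries left out. TMM-rescaled TPM, leaving out SB_0920 or SB_0921 alone, and sums without ranks 52, 55, 63 and 91 were chosen after seeing the data. Steps were tested on simulated counts.

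The rule for named genes took the highest ratios, the largest changes past the threshold without overlap between groups, the largest and smallest differences of failing node from failing right atrium, the genes at the edge of the ratio, and the largest differences between failing node parts. Since no identifier matched a symbol, identifiers are printed for rank 1 and for at most 2 changes in each direction. Rank 52 and further members given by rank outside the rule were chosen after their values were seen. Gene lists, markers and motifs were not applied.

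Deviations of same-code libraries from their group means correlated at 0.30 to 0.38 between failing inferior node and right atrium, 0.41 to 0.45 for the superior node, 0.11 to 0.36 and 0.16 to 0.39 with the left ventricle, and 0.36 to 0.63 between the node parts. All exceed 0.1, so codes pair these libraries, a pairing taken from the titles' codes and the data. They did not for the left atrium or the healthy node parts, through single codes. With the left atrium, code 0508 gave 0.003 for the inferior and -0.12 for the superior node, and 0507 gave 0.096 for the superior node. The other values there were 0.15 to 0.46. Between the healthy node parts 0920 gave -0.06, and the other codes gave 0.24 to 0.54.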

Additional observations from a re-analysis of the deposited data

Results flagged for a closer look

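Of 63 combinations of a group with a member or a summary of the members, 7 had a single library far above the other 3. All 7 were of the member ranked 1, which entered only 1 combination for each group examined. In the healthy inferior node its highest library stood at 1275 TPM and in the failing superior node at 1119 TPM. Chance gives such a gap in about 1 in 20 groups if values are normally distributed, which was not tested for these widely spread TPM values. In the other 5 groups 3 libraries were at 0, so that any read in the remaining library meets the criterion, and that rate does not apply. The remaining library had 0.1846 TPM in the healthy and 0.0463 TPM in the failing right atrium, 0.1047 TPM in the healthy and 0.1099 TPM in the failing left atrium, and 0.0477 TPM in the failing left ventricle.

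For the member ranked 36 all failing libraries lay above all healthy ones in the right atrium (log2 change 0.698, edgeR adjusted p = 0.0070) and all lay below them in the left ventricle, where the change of -0.409 did not pass (edgeR adjusted p = 0.58). The right atrial call was lost with limma on log2(TPM + 1) (adjusted p = 0.055) and log2(TPM + 0.1) (adjusted p = 0.064) and in 1 edgeR fit of all 38 libraries (adjusted p = 0.34). The difference between the regions was not tested.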

How the results depend on the processing

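The number of members was 221 with 0.1 TPM added in place of 1, 185 at a ratio of at least 2 and 47 at a ratio of at least 5. It ranged from 68 to 112 when a healthy code or a single inferior node library was left out. With TPM rescaled by TMM it was 90, of which 86 were among the 98. The count with a failing ratio of at least 3 was 89 with 0.1 TPM added, 75 with TMM, and 76 to 82 without single codes. With 1 fit of all 38 libraries, 18 members were called between failing and healthy inferior node, 9 for the superior node, 9 for the right atrium, 20 for the left atrium and 5 for the left ventricle. Shares of all genes called in this fit, with limma or without single libraries are not given here. Nothing about the members is therefore read from a shift in these counts. In the superior node DESeq2 called 10, and limma called 1 with either added value and 1 on TPM rescaled by TMM. In the left ventricle DESeq2 called 3 and limma on log2(TPM + 0.1) called 1. Between the failing node parts DESeq2 called 1. Leaving out single libraries gave 11 to 19 calls for the inferior node, 0 to 8 for the superior, 25 to 33 for the right atrium, 30 to 36 for the left and 0 for the left ventricle. Across the failing node comparisons it gave 86 to 91 and 83 to 89 against the right atrium, 80 to 90 and 70 to 83 against the left atrium, and 84 to 91 and 80 to 90 against the left ventricle (inferior, then superior node). With the code as a replicate block the called members numbered 89 and 91 against the right atrium, 87 and 78 against the left, 85 and 86 against the ventricle, and 0 between the node parts in either health state, so that the block moved no count by over 1.5 times. Differences of failing inferior node minus failing right atrium changed sign for rank 52, to 0.10 with limma at either added value, 0.080 without iSAN0508 and 0.050 without RA_0409, with a range of -0.47 to 0.080 when single libraries were left out. For rank 93 the sign changed from -0.12 to 0.63 and 0.83 with limma at 1 and 0.1 TPM added, 0.36 on TPM rescaled by TMM, 0.29 with the replicate block, 0.19 without iSAN0508 and 1.26 without RA_0409 (range -0.63 to 1.26). Neither gene was called there under these settings, and the cause was not tested. On TPM not rescaled, the median of all genes shifted by over 0.1 against the right atrium (0.19 for the inferior node), the left atrium (0.17) and the left ventricle (0.76 and 0.53). Of the other values for single members, 806 were on the same side of the threshold, 37 lost and 13 gained the call. Rank 38 lost its superior node call under 10 settings. Depth limits the members near 0 outside the node, for which a fold is a bound, and 2 healthy left ventricles limit the test there.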
